A study of Mus musculus with 11 samples.

Results

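The Guttman catalogue is a published set of mouse long intergenic noncoding RNAs (lincRNAs), and its entries make up 563 of the 48942 features that were counted in Dicer-deficient and wild-type mouse embryonic stem cells (ESCs). They were taken as every feature that the deposited tables class as a known lincRNA and whose name carries the name of the catalogue. A further 38 rows that carry the catalogue's name are classed as unannotated in the same table and were left out. Of the 563 entries, 561 are named by an interval of the genome and 2, linc1383.3 and linc1643.3, by a number only. Intervals are written as the deposited tables give them, and mm9 is the genome build named in the submitters' processing notes. No gene name, exon structure or strand accompanies an interval, so no neighbouring gene is given here.

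Of the 11 samples in the series, 7 are RNA libraries. They come from 3 lines of Dcr KO ESCs (lines 1, 3 and 4), 2 replicates of Dcr WT ESCs, 1 cMyc KO library and 1 library of ESCs with both cMyc alleles floxed (cMyc flox). All are of strain 129S4/SvJae, were grown on gelatin without feeder cells, and were made from poly(A)-selected RNA as directional libraries, sequenced from both ends for Dcr and from 1 end for cMyc. The means of deletion is not stated in the labels, and no label says whether the Dcr WT replicates came from separate cultures, so a p-value covers only how far these libraries spread, which may be technical. The deposited column names also carry a suffix that no label explains, the same for all 3 knockout lines and Dcr WT replicate 2 and another for Dcr WT replicate 1; whether it marks a batch is not stated, and fits without replicate 1 hold only libraries of 1 suffix. The 4 chromatin libraries of the series are not analysed here.

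Long noncoding RNAs resemble mRNAs in that RNA polymerase II makes them and that many are capped, spliced and polyadenylated, but they are not translated into protein. The Guttman entries were first recognised by their chromatin, a stretch of active promoter marks followed by marks of elongation in DNA between protein-coding genes, and several lincRNAs of ESCs are known to help hold the pluripotent state. Dicer cuts hairpin precursors into mature microRNAs, which repress mRNAs, and Myc is a transcription factor that binds the promoters of many active genes. The title of the series places Myc between microRNAs and long noncoding RNAs, which is why the entries were followed in both deletions.

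The targeted genes were lower in the knockout libraries, Dicer1 only in part. Dicer1 averaged 8696 ± 1033 (SD, n = 3) normalised read counts in Dcr KO and 19462 ± 947 (SD, n = 2) in Dcr WT, and Myc stood at 10.9 in the cMyc KO library and 470.0 in the cMyc flox library. The deleted part of either gene is not stated in the labels, so a whole-gene count of Dicer1 does not by itself show the genotype. Depth was 247574902, 278006158 and 251808298 reads in Dcr KO lines 1, 3 and 4, 101815723 and 206721717 reads in Dcr WT replicates 1 and 2, 31633011 in cMyc KO and 24660365 in cMyc flox. Markers of ESCs were high in every library, with sums over 9 genes of 985329 to 1155930 in Dcr KO and 966485 to 1094280 in Dcr WT. In the cMyc libraries, normalised separately, they summed to 63019 in cMyc KO and 52294 in cMyc flox. In limma 1 of the 9 rose (Fgf4, 0.56) and 1 fell (Tdgf1, −0.86), beside 20.5% higher and 22.7% lower of coding features. Fgf4 was not called without Dcr KO line 1 or 3, nor Tdgf1 without any 1 knockout line. Fibroblast markers (8 genes) summed to 2107 to 6003 in Dcr KO and 29315 to 41644 in Dcr WT, with Postn at 0 in every Dcr KO line and in Dcr WT replicate 1, and in limma 1 rose (Dcn, not called without Dcr KO line 1 or 3) and 5 fell. Endoderm markers (8 genes) summed to 2406 to 2737 in Dcr KO and 3331 to 6200 in Dcr WT, with Afp at 0 in all 5, and 0 rose and 4 fell in limma (Gata6, Hnf4a, Amn and Cubn), beside 22.7% lower of coding features. Cubn, at 2573 and 416 in Dcr WT replicates 1 and 2, was not called without any 1 knockout line or without replicate 1; its log2 fold change was −2.0 with all 5 libraries and −0.69 without replicate 1, and Gata6 was not called without Dcr KO line 1 or 4 or Dcr WT replicate 1. The part of such cells in the results that follow was not tested, and in bulk RNA fewer cells of a type cannot be told apart from less RNA per cell.

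Most entries were silent or close to it in these cells. Of the 563, 246 had no read in any of the 5 Dcr libraries, 189 had at least 1 read in all 5, and 243 reached a normalised count of 1 in at least 2 libraries and were tested. The other 320 were not tested, 74 of them with some reads. A count of 0 allows up to 3 reads in a library (counting error only), which is a normalised count of 2.29 to 2.66 in the Dcr KO lines and of 6.04 and 2.74 in Dcr WT replicates 1 and 2. The intervals spanned from 104 to 540270 bases with a median of 1406, and the median was 1471 bases in tested entries and 1394 in those with no read. They lie on 20 chromosomes, and merging intervals that overlap leaves 540 loci. In 18 loci, with 41 entries in all, intervals overlap, so that entries there can share reads and are not independent. The median level of the tested entries was 32.9 normalised counts over the 5 libraries, against 54.1 for all features tested and 2737 for coding features (per feature, not per length).

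A single entry held a large part of the reads. The interval chr8:124361218-124362822 (1605 bases) stood at 36179.9, 38463 and 29209 normalised counts in Dcr KO lines 1, 3 and 4, against 60582 and 63329 in Dcr WT replicates 1 and 2. All 3 knockout lines lay below both wild-type libraries, at a mean of 34618 ± 4821 (SD, n = 3) in Dcr KO and 61955 ± 1943 (SD, n = 2) in Dcr WT, a fall of −0.85 ± 0.15 on the log2 scale (± SE throughout for log2 fold changes, with limma's adjusted p = 0.00336). This interval took 34.6 to 43.6% of all entry reads in the Dcr KO lines and 52.6 to 57.3% in the Dcr WT libraries. With it, the summed level of the entries was 84385 to 88221 in Dcr KO and 105681 to 120452 in Dcr WT, and the groups did not overlap. Without it, the sum was 49338 to 55176 in Dcr KO and 45099 to 57123 in Dcr WT, and they did. As a share of all reads the entries together came to 0.0389 to 0.0438% in Dcr KO and 0.0516 to 0.0638% in Dcr WT.

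**Figure D1:**
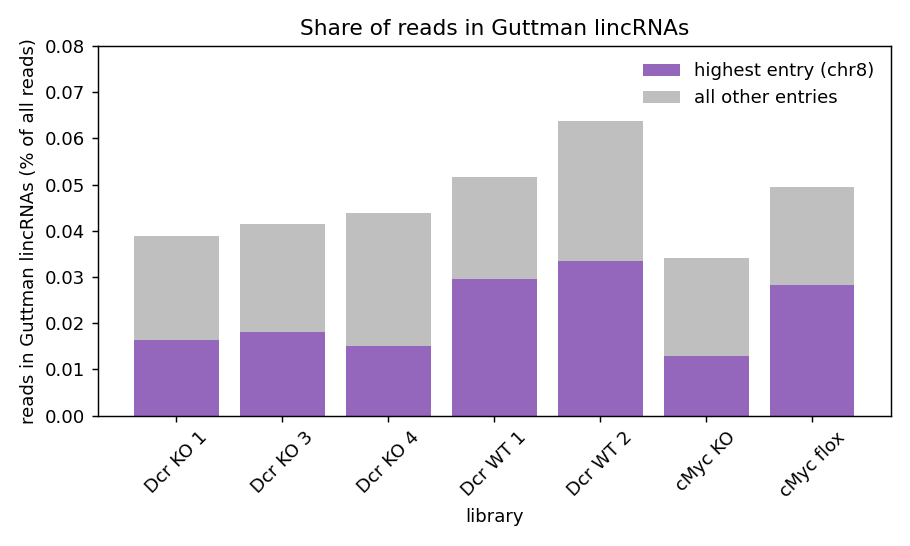
Share of all reads that fell in Guttman lincRNAs, in percent, for each of the 7 RNA libraries; the lower part of a bar is the highest entry, on chr8, and the upper part is all other entries. The 3 Dcr KO lines stand at 0.0389 to 0.0438% and the Dcr WT libraries at 0.0516 and 0.0638%, and the chr8 part is smaller in each knockout library than in each control library.

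Loss of Dicer was accompanied by changes in both directions, with more entries lower than higher. Of 243 tested entries, 45 fell and 23 rose in Dcr KO (limma, Benjamini-Hochberg adjusted p under 0.05 over all 42358 features tested), and 175 did not pass. Those are 18.5% and 9.47% of the tested entries, beside 14.8% lower and 16.9% higher among all features tested and 22.7% lower and 20.5% higher among coding features. An entry that passed the filter only through the group where it is high had to differ, so these shares are not a test. The median log2 fold change was −0.21 over the tested entries (−0.19 with the 15 entries that have a group at 0 set to their bound), 0.08 over all features tested and −0.06 over coding features. Among 95 entries with a mean of at least 50 normalised counts, 26 fell (27.4%) and 19 rose, beside 21.7% lower and 21.7% higher among all features at that level. Of the 17 entries with a mean of at least 500, 5 fell and 7 rose, beside 21.8% lower and 24.3% higher of all features at that level, with a median log2 fold change of 0.37 for these entries and 0.02 for all features. Of other known long noncoding RNAs in the table, 25.7% were lower and 27.4% higher in the Bartel catalogue (179 tested), and 81 were lower and 11 higher (2.71%) of 406 tested in the lncRNAlocus catalogue, with no test between the sets.

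All 45 entries that fell had each Dcr KO line below both Dcr WT libraries, and all 23 that rose had each line above both. Over the tested entries, whether called or not, 35.0% lay wholly lower in Dcr KO and 22.2% wholly higher, beside 27.4% and 30.0% of all features tested. Those that fell came from 44 loci on 17 chromosomes and those that rose from 22 loci on 13 chromosomes, so neither set is 1 cluster. The falls had a median log2 fold change of −1.95, with 22 of 45 at least 4-fold and 13 at least 8-fold on the log2(value + 1) scale, and the rises a median of 2.37, with 15 of 23 at least 4-fold and 6 at least 8-fold. At an unadjusted limma p under 0.05, 56 entries were lower and 34 higher, and no share of all features is given at that threshold. edgeR and DESeq2 on the recovered reads each called 47 lower and 21 higher. Of all 42358 features, edgeR called 6466 lower and 6594 higher and DESeq2 6859 lower and 7067 higher. Without Dcr KO line 1, 3 or 4 the number that rose was 13, 12 and 10, against 33, 32 and 32 that fell. Over all features the calls dropped too, to 4386, 3782 and 4378 higher and 4335, 3847 and 4275 lower, against 7171 higher and 6273 lower with all 5 libraries. Fits without 1 Dcr WT library leave 1 library in that group, so only the median log2 fold change is given for them. Over the tested entries it was −0.20 without replicate 1 (only the libraries of 1 suffix) and −0.086 without replicate 2. Over all features it was 0.05 and 0.09 in these fits. Of the 45 falls, 33, 32 and 31 were called again without Dcr KO line 1, 3 or 4, and of the 23 rises 11, 12 and 10. No such count is given for all features. In the 5 fits that leave out 1 library, 0 of the calls changed sign. Of the falls, 3 had all knockout lines at 0 and could be fitted only in the 3 fits without a knockout line.

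**Figure D2:**
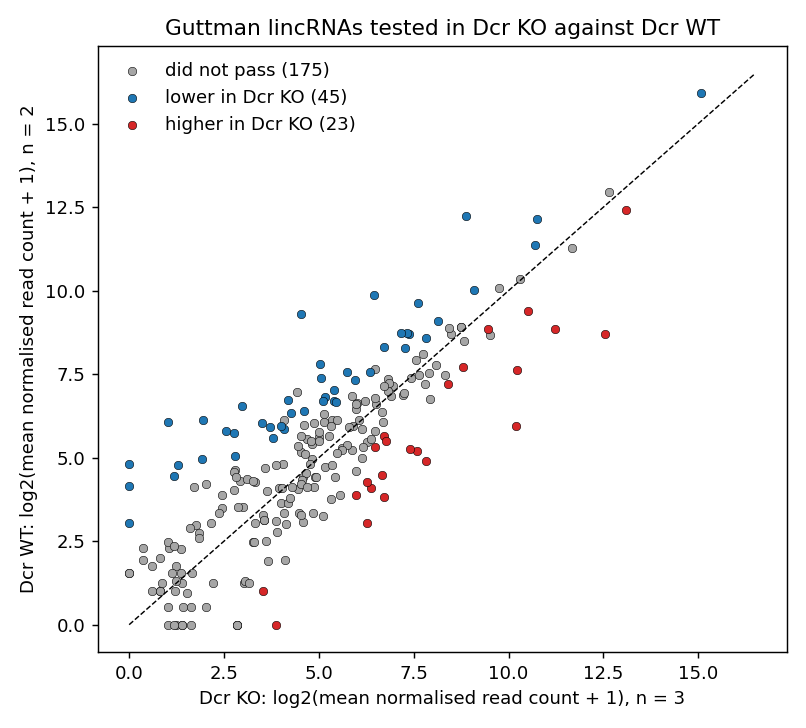
Mean level of each of the 243 tested entries in Dcr KO (x axis, 3 lines) and Dcr WT (y axis, 2 libraries), as log2 of the mean normalised read count plus 1; colours give the limma call and the dashed line marks equal levels. The 45 entries that fell lie above the line and the 23 that rose lie below it.

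The rise with the largest fold among entries with a mean of at least 50 was in chr11:96060169-96060791, an interval of 623 bases. It stood at 1006, 1046 and 1469 normalised counts in Dcr KO lines 1, 3 and 4, against 76.4 and 45.6 in Dcr WT replicates 1 and 2. That is 1174 ± 257 (SD, n = 3) in Dcr KO and 61.0 ± 21.8 (SD, n = 2) in Dcr WT, a 19.2-fold difference of means (log2 fold change 4.27 ± 0.29, limma adjusted p = 2.9e-05). The groups are far apart, and every knockout line exceeds every wild-type library by more than the spread within either group. The second, chr4:128598064-128598276, is only 213 bases long yet one of the most abundant entries. It stood at 5689, 5357 and 6854 in the Dcr KO lines, against 443 and 385 in the Dcr WT libraries, a 14.4-fold difference (log2 fold change 3.84 ± 0.17, limma adjusted p = 1.01e-05). Both stayed called when any 1 knockout line was left out.

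In the rises ranked 3 and 4 the wild-type libraries lay far apart, and the size of the rise depended on which was used. The interval chr8:25285095-25286952 stood at 129.5, 176 and 201 in the Dcr KO lines, against 72.4 and 1.83 in Dcr WT replicates 1 and 2, and chr3:93676580-93679966 at 82.5, 87.8 and 132 in Dcr KO, against 40.2 and 2.74 in Dcr WT. Both are high in replicate 1 and close to 0 in replicate 2. The log2 fold change of the first was 3.54 (limma adjusted p = 0.0306), and it was 5.89 without Dcr WT replicate 1 and 1.19 without replicate 2. For the second it was 3.00 (limma adjusted p = 0.0237), 4.74 without replicate 1 and 1.27 without replicate 2. Fits without 1 wild-type library leave 1 in that group, so only the log2 fold changes are given for them. Leaving out any 1 knockout line left log2 fold changes of 3.40 to 3.71 for the first and 2.79 to 3.13 for the second but ended both calls (limma adjusted p from 0.0946 to 0.129 for the first and from 0.0724 to 0.114 for the second), and DESeq2 did not call the first (adjusted p = 0.239).

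The rises ranked 5 and 6 were of similar size. The interval chr7:132439991-132441025 stood at 152, 199 and 329.8 in the Dcr KO lines, against 40.2 and 17.3 in Dcr WT (log2 fold change 2.97 ± 0.46, limma adjusted p = 0.00144). It lies inside a longer entry, chr7:132433834-132441025, which also rose (37.3, 59.6 and 131 in Dcr KO, against 10.1 and 4.56 in Dcr WT), and this pair counts as 1 locus. The interval chr1:181618106-181618921 stood at 80.7, 95.5 and 139 in Dcr KO, against 18.1 and 8.22 in Dcr WT (2.96 ± 0.47, limma adjusted p = 0.00178). In each of these the lines and the wild-type libraries are well separated.

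Other rises with many reads were smaller in fold and were chosen for their level after their values were seen. The interval chr16:4278167-4278599 stood at 2816, 2218 and 2098 in Dcr KO, against 374 and 551 in Dcr WT (log2 fold change 2.37 ± 0.22, limma adjusted p = 0.000112). The interval chr8:24276120-24277313 stood at 1077, 1176 and 1302 in Dcr KO, against 161 and 230.0 in Dcr WT (2.61 ± 0.22, limma adjusted p = 7.19e-05). Both stayed called when any 1 knockout line was left out. The interval chr16:30200350-30204339 stood at 1601, 1379 and 1426 in Dcr KO, against 863 and 472 in Dcr WT (1.20 ± 0.25, limma adjusted p = 0.00664), and its call ended when line 1 was left out (limma adjusted p = 0.0513).

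**Figure D3:**
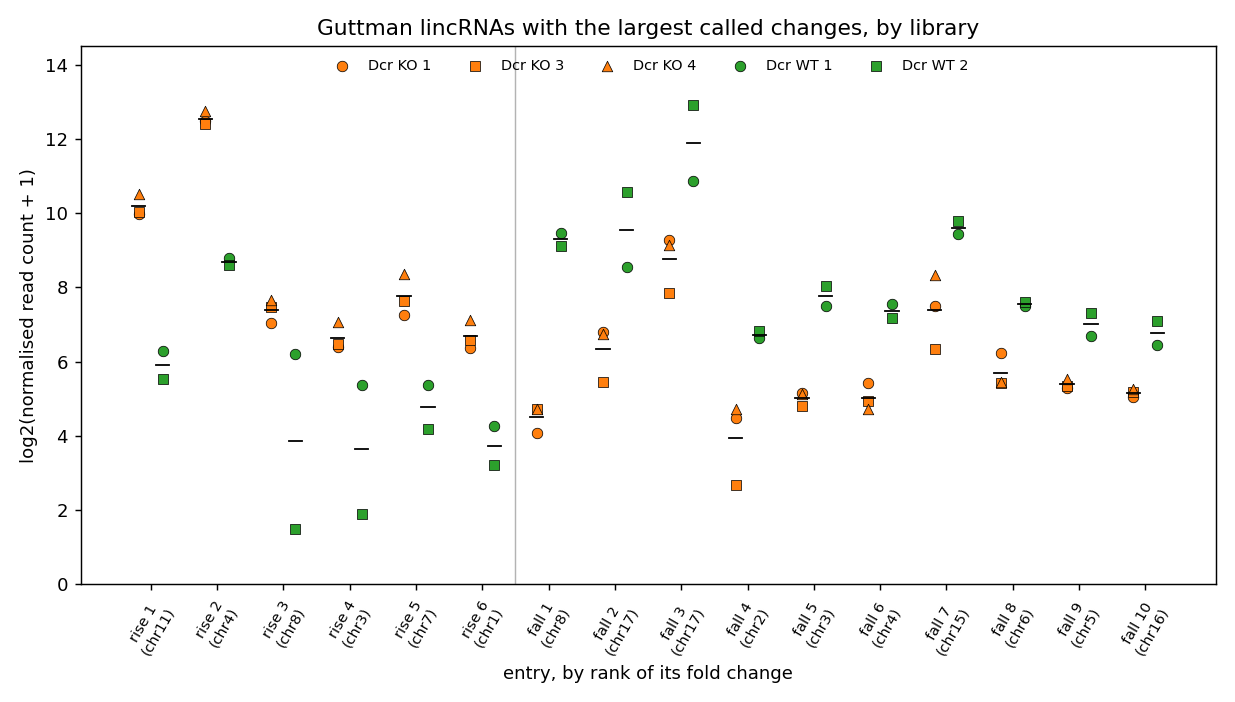
Normalised read count of each library, as log2 of the value plus 1, for the 6 largest rises and 10 largest falls among called entries with a mean of at least 50, ranked by fold change; Dcr KO lines stand left of Dcr WT libraries at each entry, and bars mark the mean of the log2 values in each group. The 2 wild-type libraries are far apart for the rises ranked 3 and 4 and for the falls ranked 2 and 3, and close for the fall ranked 1.

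The largest fall at that level was in chr8:88130445-88131091, an interval of 647 bases. It stood at 16.0, 25.2 and 25.3 in Dcr KO lines 1, 3 and 4, against 710.1 and 556 in Dcr WT replicates 1 and 2. Its mean was 22.1 ± 5.35 (SD, n = 3) in Dcr KO and 633 ± 109 (SD, n = 2) in Dcr WT, 28.6-fold lower (log2 fold change −4.79 ± 0.36, limma adjusted p = 4.18e-05). All 3 lines were uniformly low, and the call did not depend on any 1 knockout line. The next was a pair of entries that start at the same base, chr17:39983598-39983929 and chr17:39983598-39984062, and so count as 1 locus. The longer stood at 622, 229 and 564 in Dcr KO, against 1873 and 7676 in Dcr WT replicates 1 and 2 (log2 fold change −3.13 ± 0.57, limma adjusted p = 0.0033). The groups do not overlap, but the wild-type libraries differed 4.10-fold, and the log2 fold change was −4.15 without Dcr WT replicate 1 and −2.11 without replicate 2. For the shorter the log2 fold change was −3.21, with −4.22 and −2.20 in the same fits.

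The remaining large falls were of entries between 52.4 and 430.6 normalised counts on average. The interval chr3:9649520-9651138 stood at 34.6, 26.7 and 33.7 in Dcr KO, against 181 and 262 in Dcr WT (−2.75 ± 0.36, limma adjusted p = 0.000656). The interval chr4:129968638-129974058 stood at 41.7, 29.8 and 25.3 in Dcr KO, against 185 and 144 in Dcr WT (−2.34 ± 0.39, limma adjusted p = 0.00207). The interval chr6:117829795-117834595 stood at 73.6, 42.0 and 42.9 in Dcr KO, against 179 and 195 in Dcr WT (−1.85 ± 0.37, limma adjusted p = 0.00504). In these 3 every knockout line lay below both wild-type libraries, and each stayed called when any 1 knockout line was left out.

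The knockout lines were less alike in other falls. The interval chr15:96900578-96903607 stood at 179, 80.2 and 323 in Dcr KO, against 696 and 875 in Dcr WT (−2.22 ± 0.48, limma adjusted p = 0.00749, and 0.0522 when line 1 was left out). The interval chr2:91882433-91883451 stood at 21.3, 5.35 and 25.3 in Dcr KO, against 98.6 and 111 in Dcr WT (−2.77 ± 0.64, limma adjusted p = 0.0101), and its log2 fold change was −2.13 without line 3. In both, line 3 was the lowest. The intervals chr5:3294010-3297973 (−1.61, limma adjusted p = 0.00995) and chr16:94062144-94063107 (−1.61, limma adjusted p = 0.0124) complete the 10, and the second was not called without Dcr WT replicate 2 (adjusted p = 0.0544).

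Below a mean of 50, some entries were read in wild-type cells and hardly at all in the knockout lines. The interval chr6:43795105-43800063 had no read in any Dcr KO line, against 12.1 and 42.0 normalised counts in Dcr WT, and chr9:97176134-97182301 likewise had none, against 18.1 and 15.5. Set against the 3 reads per library that a count of 0 allows, the first was at least 11.2-fold lower and the second at least 6.96-fold lower in Dcr KO. The fall with the largest log2 fold change of the 45 was that of chr8:4675610-4678109, at 0, 3.06 and 0 in Dcr KO, against 50.3 and 82.2 in Dcr WT (−5.36 ± 0.87, limma adjusted p = 0.00188; −6.03 without line 3). In the other direction, chr15:56117551-56118869 had no read in either Dcr WT library, against 2.66, 21.4 and 16.8 in Dcr KO, at least 3.11-fold higher, and its call (limma adjusted p = 0.0269) ended when line 3 or line 4 was left out (limma adjusted p up to 0.128). These entries were chosen after their values were seen. Each met the filter only through the group where it is high, so a p-value given for it is no support for the difference.

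The entries with the highest levels moved in both directions. Per kilobase of interval, which can include introns, chr8:124361218-124362822 led with 28382 normalised counts over the 5 libraries, followed by chr4:128598064-128598276 with 17584, chr2:84429120-84429711 with 12627 and chr15:75716463-75716712 with 11320. The last of these fell, at 1641, 1625 and 1886 normalised counts in Dcr KO, against 4001 and 4998 in Dcr WT (log2 fold change −1.38 ± 0.17, limma adjusted p = 0.000437). The interval on chr2 stood at 7896, 8622 and 9928 in Dcr KO, against 4323 and 6606 in Dcr WT (0.72 ± 0.20, limma adjusted p = 0.0224). Its call ended when any 1 knockout line or Dcr WT replicate 1 was left out (limma adjusted p from 0.0633 to 0.0959) and with each library scaled to the same total (adjusted p = 0.0655).

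Among entries with a mean of at least 500, those nearest to no change include some of the most abundant. The interval chr2:168831397-168862119 stood at 6321, 6437 and 6481 in Dcr KO, against 7969 and 7901 in Dcr WT (log2 fold change −0.31 ± 0.13, limma adjusted p = 0.106). Its groups do not overlap, although it did not pass. The entry linc1383.3 stood at 2773, 3863 and 3100.0 in Dcr KO, against 2359.8 and 2624 in Dcr WT (0.37 ± 0.18, limma adjusted p = 0.143), and chr1:183957414-183959858 at 1064, 676 and 826, against 935 and 1237 (−0.36 ± 0.23, limma adjusted p = 0.272). The interval chr14:15502577-15503300 stood at 1404, 1142 and 1214 in Dcr KO, between 694 and 1902 in Dcr WT replicates 1 and 2 (0.12 ± 0.35, limma adjusted p = 0.820). Its sign depended on which wild-type library was used, with a log2 fold change of −0.61 without replicate 1 and 0.85 without replicate 2. The other entry named by a number, linc1643.3, which is named here although it was not called, stood at 516, 544 and 1117 in Dcr KO, against 487 and 330.5 in Dcr WT (0.76, limma adjusted p = 0.119).

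Some entries separated single libraries rather than genotypes. Over the 95 entries with a mean of at least 50, the highest of the 3 Dcr KO lines was a median of 1.37 times the lowest, and the higher Dcr WT library a median of 1.33 times the other, while the ratio passed 4 for 3 entries among the lines and for 10 between the wild-type libraries. The widest was chrX:166438823-166444781, at 137, 0.764 and 174 in Dcr KO lines 1, 3 and 4, against 143 and 139 in Dcr WT. It was near 0 in line 3 alone and at the wild-type level in the other lines, so that the genotypes overlap (log2 fold change −2.02 ± 1.61, limma adjusted p = 0.362). It is 1 of 5 overlapping entries on the X chromosome. The adjoining chrX:166444277-166446574 stood at 53.2, 3.06 and 24.5 in the lines, against 36.2 and 52.9, and chrX:166432931-166443588 at 26.6, 5.35 and 30.6, against 12.1 and 67.6. Of the knockout lines, line 3 was the lowest for each of these 3. Between the wild-type libraries, chr1:30673688-30677228 stood at 60.4 in replicate 1 and 1.83 in replicate 2, while the Dcr KO lines all lay between 66.5 and 72.8. The entries of this paragraph were chosen after their values were seen, apart from chrX:166438823-166444781.

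**Figure D4:**
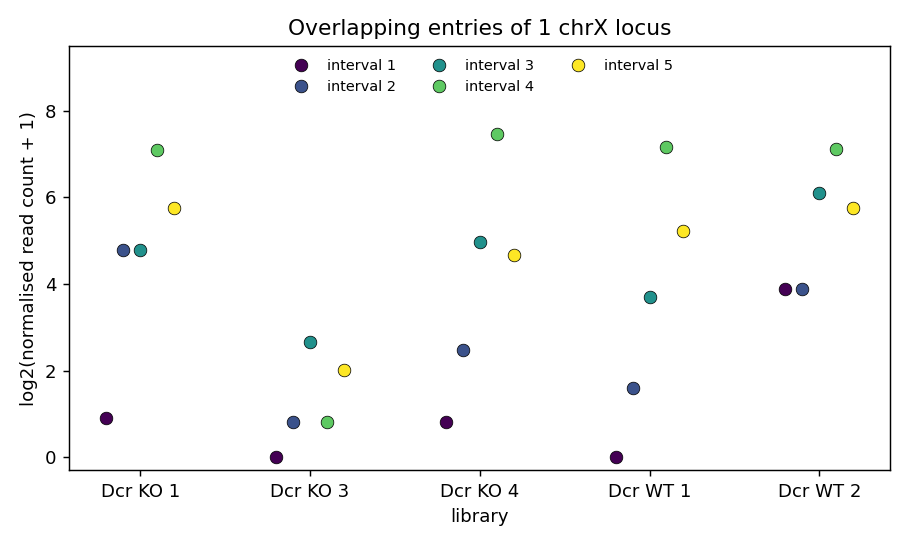
Normalised read count, as log2 of the value plus 1, of the 5 overlapping entries of 1 chrX locus in the 3 Dcr KO lines and the 2 Dcr WT libraries; intervals are numbered along the chromosome and points are set side by side within a library. Interval 4 stands at 137 and 174 normalised counts in Dcr KO lines 1 and 4, at 0.764 in line 3, and at 143 and 139 in Dcr WT.

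Of 14 transcription factors that act on many genes in ESCs, 3 rose and 1 fell in Dcr KO (limma), beside 20.5% higher and 22.7% lower of coding features. The one that fell was Myc, at 1253, 1054 and 443 normalised counts in Dcr KO, against 10984 and 7478 in Dcr WT (log2 fold change −3.44, limma adjusted p = 0.000289). The related gene Mycn averaged 94164 ± 8573 (SD, n = 3) in Dcr KO and 86245 ± 9856 (SD, n = 2) in Dcr WT and did not pass (limma adjusted p = 0.540). Those that rose were Tcf7l1, a repressor at Wnt target genes (1.28), the zinc finger factor Zfx (0.86) and Tfcp2l1 (0.49), whose call ended when any 1 knockout line or Dcr WT replicate 2 was left out (limma adjusted p up to 0.125). The core factors Pou5f1, Sox2 and Nanog did not pass, with log2 fold changes of 0.18, 0.09 and 0.48.

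The cMyc libraries ask whether the entries differ when Myc itself is deleted. That table holds 256 of the 563 entries. Of the 307 that it lacks, 224 had no read in the Dcr libraries and the highest reached a mean of 16.4 there. With 1 library per group there is no replicate check and no p-value, and at this depth only 49 entries had a mean of at least 10 normalised counts over the pair. Among them 0 were at least 2-fold higher and 3, or 6.12%, at least 2-fold lower in cMyc KO, beside 1.32% higher and 2.08% lower of all features at that level and 1.34% and 0.613% of coding features. With the libraries scaled on coding features alone, 7 of the 49 were at least 2-fold lower. The shares above are for the deposited values, and no share of all features is given for that scaling. More of them were on the lower side, 38 against 11, with a median log2 ratio of −0.30, where all features had 0.07 and coding features 0.11 as deposited. Counting error alone allowed a firm direction in few. The 95% interval of the ratio (exact, from the recovered reads) lay below 1 for 7 entries, above 1 for 2 and included 1 for 40.

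The entries whose interval lay below 1 were mostly the abundant ones. The interval chr8:124361218-124362822 stood at 3721 normalised counts in cMyc KO and 7356 in cMyc flox, 1.98-fold lower (ratio 0.506, interval 0.487 to 0.526, from 4106 and 6980 reads). The largest difference with a mean of at least 50 was in chr14:15502577-15503300, at 47.1 in cMyc KO and 123 in cMyc flox (ratio 0.382, interval 0.270 to 0.534). The entry linc1383.3 stood at 116 and 232 (ratio 0.50, interval 0.399 to 0.625), chr15:75716463-75716712 at 151 and 235 (0.644, interval 0.524 to 0.790), and chr2:84429120-84429711 at 259 and 385 (0.674, interval 0.575 to 0.789). The other calls of 2-fold lower, chr5:23326770-23327740 and chrX:132472558-132472929, rested on 7 and 13 and on 7 and 14 reads in cMyc KO and cMyc flox, and their intervals included 1. The entries whose interval lay above 1 were chrX:166438823-166444781, at 3142 in cMyc KO and 1844 in cMyc flox (1.70, interval 1.61 to 1.81), and chr13:65592726-66132995, a span of 540270 bases, at 388 and 328 (1.18, interval 1.02 to 1.37). For the last of these the interval is for the deposited scaling. Its log2 ratio was 0.24 as deposited, 0.10 with total scaling and 0.14 with coding scaling. The same entry fell in Dcr KO, at 255, 314 and 272, against 575 and 506 in Dcr WT (limma adjusted p = 0.0105).

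The Dicer and Myc comparisons share no library, and the entries' values were set side by side. Only 17 of the 45 entries that fell in Dcr KO had a mean of at least 10 in the cMyc libraries, so the others could not be called there. Of these 17, 0 were at least 2-fold lower in cMyc KO. Over all features tested in both, 0.407% were lower in both, so that a count of 0 among 48 entries says little. The nearest was the abundant chr8:124361218-124362822, which was 1.98-fold lower in cMyc KO as deposited and at a log2 ratio of −1.09 with coding scaling, the 1 entry lower in both under that scaling. Of 17 entries that fell in Dcr KO and had enough reads in the cMyc libraries, 14 had a cMyc log2 ratio below 0, as did 4 of 7 that rose and 19 of 24 that did not pass. The median log2 ratio was −0.28 in the first set, −0.01 in the second and −0.32 in the third. For the fall ranked 1 and the rise ranked 2 in Dcr KO the cMyc intervals included 1. The fall, chr8:88130445-88131091, stood at 20.8 in cMyc KO and 24.2 in cMyc flox (ratio 0.860, interval 0.461 to 1.60). The rise, chr4:128598064-128598276, stood at 74.3 and 74.8 (0.993, interval 0.714 to 1.38). Another strong rise, chr8:24276120-24277313, held 1 read in cMyc KO and 12 in cMyc flox and was below the minimum mean of 10. For chr11:96060169-96060791 each cMyc library held 2 reads, too few to compare.

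**Figure D5:**
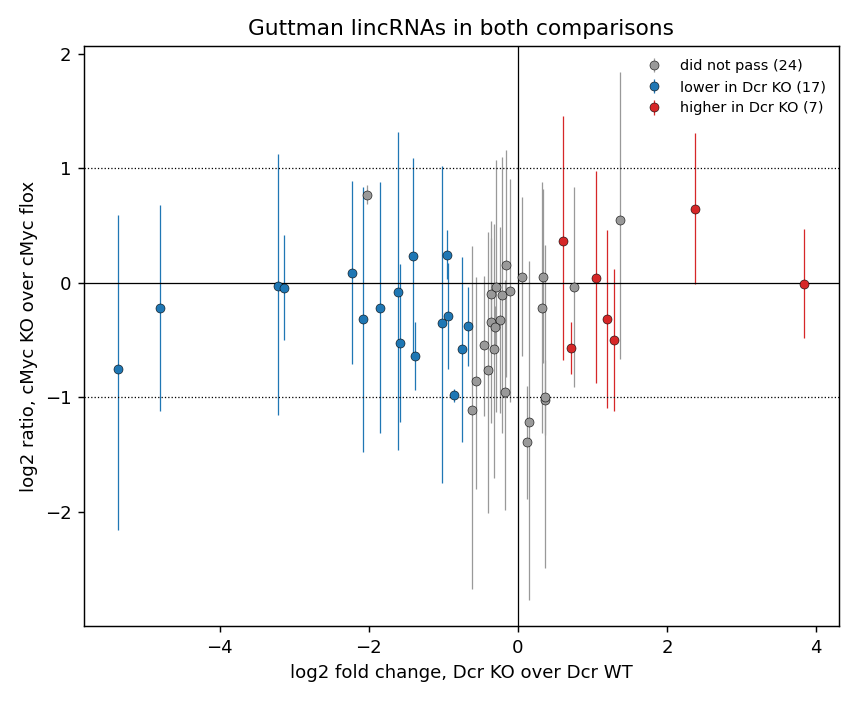
Log2 fold change in Dcr KO over Dcr WT (x axis) against the log2 ratio in cMyc KO over cMyc flox (y axis, no pseudocount) for the 48 entries tested in the first and with a mean of at least 10 in the second; vertical lines are exact 95% counting intervals and dotted lines mark 2-fold. Entries that fell in Dcr KO spread from −5.36 to −0.67 along the x axis while 13 of their 17 intervals on the y axis include 0.

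The control lines of the comparisons also differed in which entries they expressed. Because the tables were normalised separately, levels were set side by side as CPM over the reads in coding features, with no test, for 67 entries. Over 65 entries read in both, the level in Dcr WT was a median of 1.29 times that in cMyc flox, and 38 were within 2-fold. These figures describe only the entries set side by side, some of which had just 1 or 2 reads in cMyc flox. The interval chrX:166438823-166444781 had 0.763 and 0.802 CPM in Dcr WT and 114 CPM in cMyc flox, 146 times higher in cMyc flox. The interval chr18:20921031-20937261 had 2.04 and 2.60 CPM in Dcr WT and 0.0651 CPM in cMyc flox (1 read), and it fell in Dcr KO, at 182, 152 and 163 normalised counts, against 382 and 449 in Dcr WT (limma adjusted p = 0.00348). The interval chr4:79648564-79649037 had no read in any Dcr library, yet 24 reads in cMyc KO and 34 in cMyc flox. The entries of this paragraph other than the first were chosen after their values were seen. The tables also differ in single-end or paired-end sequencing, whose part in these values was not tested.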

How the data were processed

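In the deposited data the Dcr libraries share 1 table and the cMyc libraries another. Each holds a normalised signal per feature, namely reads divided by 1 factor per library, as the deposited values show: divided by the value that 1 read has in its library, 100% of Dcr values came out whole (tolerance 0.01 read) and 99.997% of cMyc values (tolerances 0.0155 and 0.0147 reads). Per the submitters' processing notes, which give no role or version, TopHat, Bowtie, DESeq and mm9 were used; the sources used here name no counting tool, use of strand, gene models or filter. Values of overlapping, antisense or repeated intervals are therefore uncertain.

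Dcr KO was compared with Dcr WT on the log2(value + 1) scale with limma 3.58.1 in R 4.3.3 (eBayes, trend on), for the 42358 features that reached 1 in 2 or more libraries; a log2 fold change understates the change of low features. edgeR 4.0.16 and DESeq2 1.42.0 were run on recovered reads, as were other pseudocounts, filters, scalings and fits without each library. cMyc ratios have exact (Clopper-Pearson) 95% intervals and floors of 3 reads, which cover counting error only. RefSeq symbols came from an annotation of GRCm38.p6, used for names only. No sequence is printed, since no mm9 sequence was used here.

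The entries, lists and tests were chosen with earlier results of these data known. Named entries were the 6 largest rises and 10 largest falls called in Dcr KO with a mean of at least 50, the 6 highest, the 4 nearest to no change with a mean of at least 500, up to 5 in each direction in cMyc KO with a mean of at least 50, and any number-named entry that was called; others are marked as chosen after their values were seen.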

Additional observations from a re-analysis of the deposited data

How the results depend on the processing

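The count of entries that rose in Dcr KO (23) lay between 19 and 25 under other pseudocounts, scalings, tests and a minimum mean of 10, and that of entries that fell (45) between 41 and 47. Over all features these settings gave 6270 to 7990 higher and 5660 to 6957 lower, of 42358 tested (35043 with the minimum mean of 10). With no filter on low values, where 563 entries and 48942 features enter the fit, 11 rose and 29 fell, and 9 and 25 of these were among the main calls. Over all features the calls dropped too, from 7171 higher and 6273 lower to 4169 higher and 3967 lower. Without 1 library the counts were 10 to 30 higher and 32 to 39 lower. The median log2 fold change (−0.21) was 0 with no filter, −0.28 with a minimum mean of 10, and −0.27 to −0.086 without 1 library, nearest to 0 without Dcr WT replicate 2. Of 350 refits of single named entries, 326 kept their side of the threshold, 2 gained a call and 21 lost it, 7 of them with no filter. The remaining 1 reversed: chr14:15502577-15503300, at −0.61 without Dcr WT replicate 1 and 0.85 without replicate 2. The refits include those that leave 1 Dcr WT library, whose calls do not cover the wild-type spread. Among refits that kept their side, entries that were not called could still change sign. The log2 fold change of chrX:166438823-166444781 was −2.02 and became 0.13 without Dcr KO line 3. That of chr14:15502577-15503300 was 0.12 and became −0.051 with edgeR and −0.055 with DESeq2.

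In cMyc KO the 3 entries at least 2-fold lower became 7 with total scaling, 7 with coding scaling, 1 with a pseudocount of 5, 1 with a minimum mean of 50, 46 with no filter, 12 at 1.5-fold and 0 at 3-fold; the 0 higher became 21 with no filter and 2 at 1.5-fold. The median log2 ratio (−0.30) was −0.31 and −0.24 with pseudocounts of 0.5 and 5, −0.10 with no filter, −0.38 with a minimum mean of 50, −0.43 with total scaling and −0.39 with coding scaling. Entries lower in both comparisons numbered 1 with coding scaling and 0 with a pseudocount of 5. The cause of these shifts was not tested beyond the change of setting itself, and no share of all features is given for the other cMyc settings. No paired analysis was possible because Dcr KO and Dcr WT share only 1 replicate number and the cMyc groups have 1 library each. The cMyc values are limited by depth and by having 1 library per group.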
